A study of Mus musculus with 12 samples.

Results

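The collagen genes of the mouse were followed through tumor and stroma of colorectal tumors from wild type mice and from mice lacking Stat3 in myeloid cells. Every gene whose symbol is Col, a number, a, and a number was taken, which gave 44 genes of the 22180 with a named probe set, from 47 probe sets. A probe set is a group of array probes read as 1 value. Of the 44 genes, 42 passed the filter on dim probe sets and were tested among 16635 genes. The members were not chosen on measured values. They were divided by known role into 11 fibrillar collagens (10 tested), 8 basement membrane collagens (all tested) and 25 others (24 tested).

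The carcinogen azoxymethane and dextran sulfate sodium, an irritant that inflames the colon, had induced the tumors in all mice, so the controls carried this treatment too. The groups were Stat3wt tumor, Stat3wt stroma, Stat3dm tumor and Stat3dm stroma, called wild type and deletion here, with 3 samples each. Stat3dm mice lacked Stat3 in myeloid cells through a conditional deletion. The labels state neither its driver nor the strain and age of the mice. A sample was made of 2 pooled tumors of 1 mouse, was cut by laser-capture microdissection from paraffin-embedded tissue, and used 50 ng of RNA. The stated purpose was to find stromal changes that depend on STAT3 in myeloid cells.

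Collagens are secreted proteins whose chains wind around each other into a helix and then assemble outside the cell. Fibrillar collagens, such as types I, III and V, form the tension-bearing fibrils of connective tissue and are made mainly by fibroblasts. Type IV collagen forms the sheet-like network of basement membranes beneath epithelium and around vessels, and types XV and XVIII lie in or beside these membranes. The other collagens include the beaded filaments of type VI, the fibril-associated types XII and XIV, the anchoring fibrils of type VII and the transmembrane type XVII of epithelial adhesion.

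Promoter windows of 4 collagens are shown, since Col4a1 and Col4a2 had the smallest p of all collagens between stroma and tumor averaged over both genotypes and share a promoter region, and Col1a2 and Col3a1 are chains of the main fibrils. The windows run from 250 bases before to 50 bases after the annotated start, read 5′ to 3′ on the strand of the gene, from RefSeq on GRCm38.p6. They lie at chr8:11312777-11313076 on the minus strand (Col4a1), chr8:11312555-11312854 on the plus strand (Col4a2), chr6:4505368-4505667 on the plus strand (Col1a2) and chr1:45311288-45311587 on the plus strand (Col3a1). Capitals mark the TATA box TATAAA, the CCAAT box CCAAT and the GC box GGGCGG on either strand.
Col4a1: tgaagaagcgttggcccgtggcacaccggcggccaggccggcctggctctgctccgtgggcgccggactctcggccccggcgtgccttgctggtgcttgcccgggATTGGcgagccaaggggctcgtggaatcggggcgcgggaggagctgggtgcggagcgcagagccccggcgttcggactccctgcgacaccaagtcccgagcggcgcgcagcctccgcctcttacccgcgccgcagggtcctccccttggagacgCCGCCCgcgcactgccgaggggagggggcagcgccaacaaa
Col4a2: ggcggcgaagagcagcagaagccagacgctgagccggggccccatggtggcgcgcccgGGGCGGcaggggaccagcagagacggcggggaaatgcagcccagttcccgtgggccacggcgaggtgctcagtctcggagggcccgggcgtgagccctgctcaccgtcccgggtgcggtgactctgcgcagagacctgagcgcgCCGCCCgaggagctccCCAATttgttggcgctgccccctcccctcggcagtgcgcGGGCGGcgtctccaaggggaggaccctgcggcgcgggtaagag
Col1a2: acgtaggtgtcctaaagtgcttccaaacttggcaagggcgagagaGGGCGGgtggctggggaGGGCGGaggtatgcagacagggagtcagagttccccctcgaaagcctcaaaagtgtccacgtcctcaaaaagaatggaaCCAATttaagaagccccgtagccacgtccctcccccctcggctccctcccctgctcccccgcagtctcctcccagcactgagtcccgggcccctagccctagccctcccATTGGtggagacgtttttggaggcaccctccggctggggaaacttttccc
Col3a1: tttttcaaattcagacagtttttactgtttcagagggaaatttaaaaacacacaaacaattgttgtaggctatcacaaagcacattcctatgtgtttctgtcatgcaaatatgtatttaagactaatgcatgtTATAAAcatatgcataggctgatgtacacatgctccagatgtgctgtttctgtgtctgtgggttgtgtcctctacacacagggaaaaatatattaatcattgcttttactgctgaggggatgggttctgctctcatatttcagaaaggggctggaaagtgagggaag
Col4a1 and Col4a2 start 21 bases apart on opposite strands, and their windows share 78 bases. In the shared stretch lies the GC box that reads CCGCCC on the strand of Col4a1 and GGGCGG on that of Col4a2.

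The table of promoters held 38 windows for 35 of the 44 collagens. TATAAA was in 5 of the 38 windows against 13.6% of all 32851 windows, CCAAT in 13 against 37.4%, and GGGCGG in 23 against 35.7%. None of the 3 strings contains another. A match describes the letters of the window only. In the RefSeq gene order, 8 pairs of collagens were direct neighbours among protein-coding genes, namely Col4a1 with Col4a2, Col3a1 with Col5a2, Col4a3 with Col4a4, Col4a5 with Col4a6, Col6a1 with Col6a2, Col9a1 with Col19a1, and Col6a5 with both Col6a4 and Col6a6.

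The medians of the 12 arrays lay between 4.20 and 4.43 on the log2 scale and the standard deviations (SD) of an array between 1.60 and 1.91. Arrays of 1 group correlated at 0.881 to 0.967 over the tested genes, and among 66 pairs of arrays 0 held identical values. Stat3 had 1 probe set, at 6.72 to 8.22 over the 12 arrays, with deletion values inside that range (7.08 to 7.97). Since only myeloid cells carry the deletion, this value did not check the labels. Epithelial markers were lower in stroma in all 10 of 10 tested genes, of which 5 passed the test (values below), in the direction of the tissue labels. The labels give 1 mouse per sample and do not say whether tumor and stroma samples shared mice, so p-values measure the spread between these samples, and 3 arrays a group limit the precision.

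The 3 brightest collagen probe sets were those of Col1a1, Col3a1 and Col1a2, with mean log2 levels over the 12 arrays of 9.76, 9.07 and 8.57. The 3 dimmest were those of Col28a1 (3.68), Col6a5 (3.53) and Col11a1 (3.23), and the last pair fell below the filter. Probe sets differ in their probes, so these levels rank probe sets and not transcripts. Of the 42 tested collagens, 22 lay above the median signal of the tested genes and 20 below. Arrays of 1 group scattered by a median SD of 0.325 for collagens and 0.300 for all tested genes. The widest scatter was that of Col6a1, with a within-group SD of 0.986, and of Col12a1, with 0.746.

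**Figure D1:**
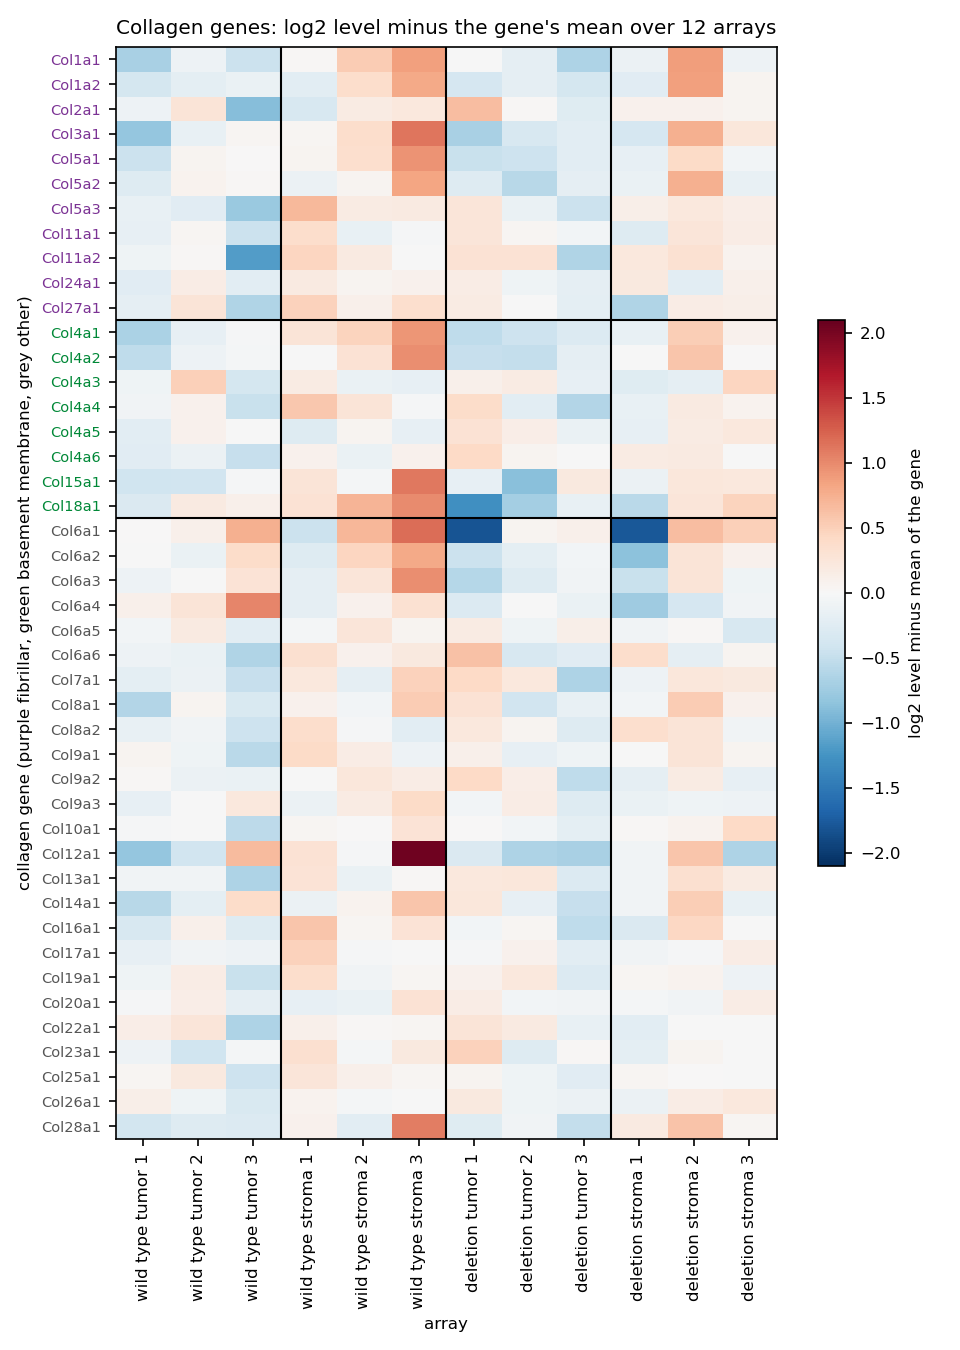
Log2 level of each of the 44 collagen genes (rows, grouped as fibrillar, basement membrane and other) on each of the 12 arrays (columns), minus the mean of the gene over the 12 arrays (colour bar). Wild type stroma 3 and deletion stroma 2 are red for most fibrillar and basement membrane rows of high signal, and Col6a1 is blue on both deletion arrays numbered 1, at 6.06 in tumor and 6.10 in stroma.

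The first comparison set stroma against tumor, averaged over both genotypes, with 6 arrays on each side. Collagens lay mostly on the stromal side: 38 of 42 had a log2 difference above 0, where 47.0% of all tested genes did. Their median difference was 0.26, against -0.03 for all genes. One collagen, Col4a1, passed the test and was higher in stroma. That is 1 of 42 collagens, or 2.38%, against 2.55% of all tested genes called in either direction, 0.848% called higher and 1.71% called lower. With the sample number of the labels as a block, the count depended on the fit: 9 of 42 collagens passed as higher with number fixed, 8 with genotype and number random and 10 with both fixed, against 3.51%, 2.87% and 3.08% of all genes called higher. Col1a1, Col3a1, Col5a1, Col5a3, Col4a1, Col4a2 and Col18a1 passed in all 3 of these fits. Col28a1, whose tumor group means lay below the filter on dim probe sets, is among the 8 and the 10. The labels do not say that a number marks 1 mouse, and over all tested genes same-numbered arrays did not deviate together in every pair. The fit without the block is therefore the one reported. At an unadjusted p under 0.05, 10 of 42 collagens were higher in stroma and 0 lower, against 7.11% and 15.1% of all genes. Col28a1 is also among these 10. The medians were 0.46 for fibrillar, 0.43 for basement membrane and 0.21 for other collagens. In bulk tissue of this kind, more cells of a type and more RNA per cell cannot be told apart.

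**Figure D2:**
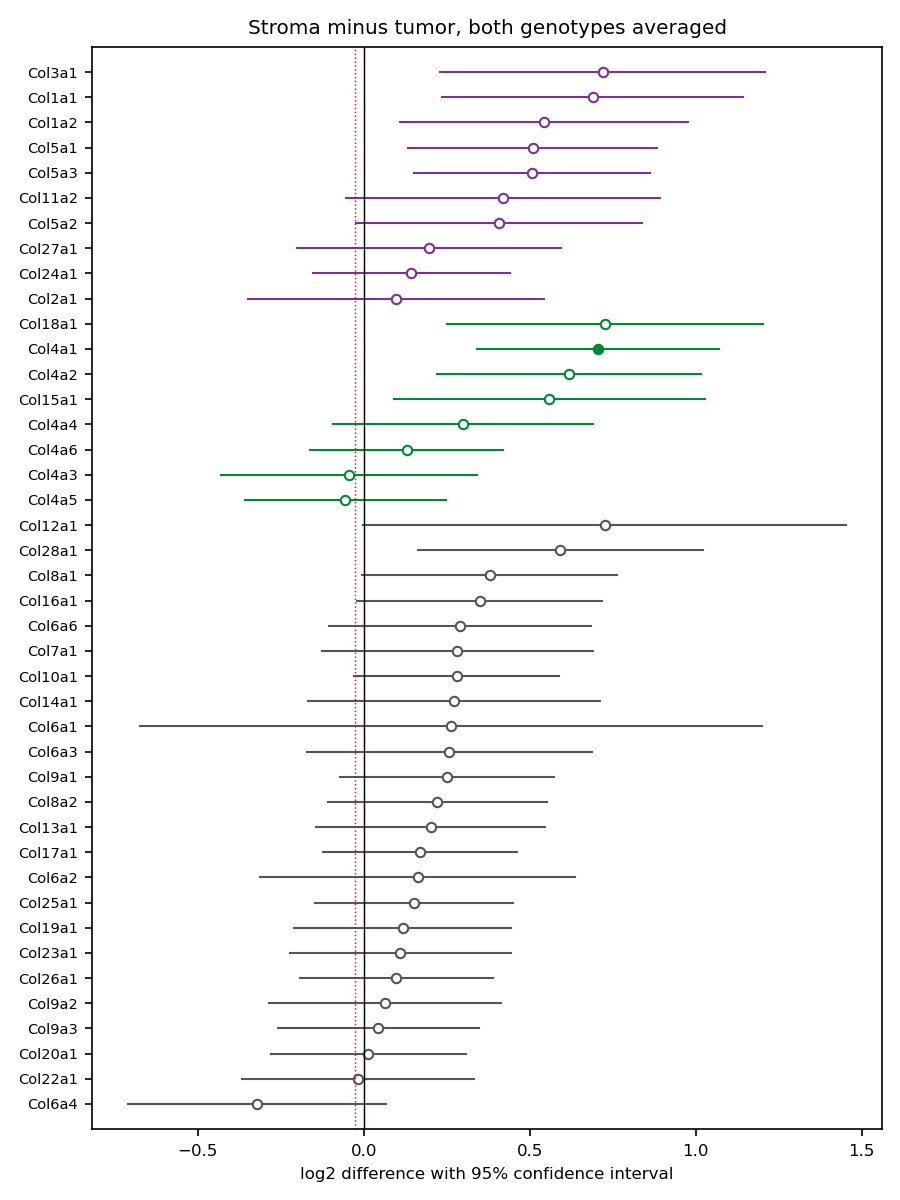
Log2 difference, stroma minus tumor averaged over both genotypes, of the 42 tested collagens (points) with 95% confidence intervals (lines), grouped as fibrillar (purple), basement membrane (green) and other (grey). The filled point passed the limma test, the solid line marks 0 and the dotted line the median of all tested genes at -0.03. The points of 38 of 42 collagens lie right of 0, and only Col4a1 is filled.

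Among the basement membrane collagens, Col4a1 encodes the alpha-1 chain of type IV collagen, a main chain of its network. Its log2 levels were 7.35, 7.84 and 7.99 on the wild type tumor arrays 1 to 3 and 8.29, 8.48 and 8.94 on wild type stroma. On the deletion arrays they were 7.49, 7.58 and 7.73 in tumor and 7.86, 8.53 and 8.10 in stroma. Within each genotype all stroma arrays lay above all tumor arrays. Across genotypes, deletion stroma 1 lay below wild type tumor 3. Col4a1 was higher in stroma by 0.70 ± 0.17 (SE, n = 6 per tissue) on the log2 scale, or 1.63-fold, with a 95% confidence interval of 0.34 to 1.07 (limma adjusted p = 0.045). The call was close to the threshold: over 22 alternatives the difference ranged from 0.61 to 0.94 and the adjusted p from 0.000338 to 0.134. It was lost without any 1 of 9 of the 12 arrays (wild type tumor 1, 2 or 3, wild type stroma 2 or 3, deletion tumor 2 or 3, deletion stroma 2 or 3; adjusted p = 0.0501 to 0.134), with each array centred on its median (0.084), and without the filter (0.0508).

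Col4a2, which encodes the partner chain of Col4a1 and is its neighbour on chromosome 8, had the next smallest p. Its log2 levels were 6.63, 7.05 and 7.13 on the wild type tumor arrays, 7.16, 7.48 and 8.14 on wild type stroma, 6.68, 6.67 and 6.98 on deletion tumor and 7.15, 7.75 and 7.17 on deletion stroma. All 6 stroma arrays lay above all 6 tumor arrays, the lowest stroma value being 7.15 and the highest tumor value 7.13. It was the 1 collagen of 42 for which this held, against 0.721% of all tested genes. The difference of 0.62 ± 0.19 (SE) did not pass the limma test (adjusted p = 0.0842, 0.00102 to 0.21 over 22 alternatives).

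Col18a1, whose product carries the antiangiogenic fragment endostatin, stood at 6.44, 6.94 and 6.85 on wild type tumor and 7.06, 7.47 and 7.74 on wild type stroma. In the deletion its log2 levels were 5.47, 6.03 and 6.60 in tumor and 6.19, 7.01 and 7.21 in stroma. The tissues did not overlap in wild type and overlapped in the deletion. The averaged difference was 0.73 ± 0.22 (SE), 1.65-fold, and did not pass (adjusted p = 0.0879). Without deletion stroma 1, its lowest deletion stroma value, it passed at 0.0382, and without both deletion arrays numbered 1 at 0.0365. The latter alternative was chosen after the Col6a1 level of these arrays was seen. Over 22 alternatives the adjusted p ranged from 0.000532 to 0.207, and 8 of the 22 passed. Col15a1, a related basement membrane zone collagen, had a difference of 0.56 ± 0.22 (SE, adjusted p = 0.157). Of the chains of the more tissue-restricted type IV networks, Col4a3 had a difference of -0.044 and Col4a5 of -0.056, with adjusted p of 0.896 and 0.823. The others, Col4a4 and Col4a6, lay above 0, at 0.30 and 0.13 (adjusted p = 0.341 and 0.573). The probe sets of all these chains lay below the median signal of the tested genes. These chains were named here after their values were seen, and Col4a3 and Col4a5 were the only tested basement membrane collagens below 0.

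The fibrillar collagens all had averaged differences above 0, from 0.10 to 0.72, and 0 of 10 passed the limma test. At an unadjusted limma p under 0.05, 5 of 10 were higher, against 7.11% of all genes. Col1a1, the alpha-1 chain of type I collagen, stood at 9.09, 9.66 and 9.31 on wild type tumor, 9.79, 10.28 and 10.61 on wild type stroma, 9.75, 9.56 and 9.12 on deletion tumor and 9.64, 10.65 and 9.66 on deletion stroma. In wild type the tissues did not overlap, whereas in the deletion 1 tumor array, number 1, lay above 2 of the stroma arrays. The averaged difference was 0.69 ± 0.21 (SE, adjusted p = 0.0879). Without both deletion arrays numbered 1 it was 0.84 and passed at 0.0471. This alternative, chosen after the Col6a1 level of these arrays was seen, leaves out the highest deletion tumor and the lowest deletion stroma value. Over 22 alternatives the adjusted p ranged from 0.00213 to 0.232, and 6 of the 22 passed.

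Col3a1, which forms type III collagen, had log2 levels of 8.25, 8.92 and 9.12 on wild type tumor, 9.12, 9.43 and 10.19 on wild type stroma, 8.40, 8.73 and 8.86 on deletion tumor and 8.72, 9.81 and 9.31 on deletion stroma. Only deletion stroma 1 fell among the tumor arrays of its genotype. The difference was 0.72 ± 0.23 (SE, adjusted p = 0.0967). Col1a2, the alpha-2 chain of type I collagen, stood at 8.20, 8.36 and 8.43 on wild type tumor, 8.35, 8.95 and 9.37 on wild type stroma, 8.22, 8.39 and 8.20 on deletion tumor and 8.33, 9.43 and 8.63 on deletion stroma. Both stroma arrays numbered 1 lay within the range of the tumor arrays. Its difference was 0.54 ± 0.20 (SE, adjusted p = 0.141), and its second probe set gave 0.63.

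The type V chains, which control the diameter of type I fibrils, had averaged differences of 0.51 ± 0.18 (SE) for Col5a1, 0.41 ± 0.20 (SE) for Col5a2 and 0.51 ± 0.17 (SE) for Col5a3. Their adjusted p were 0.116, 0.249 and 0.104. The second probe set of Col5a1 gave a difference of 0.41. Col27a1 had a difference of 0.20 ± 0.19 (SE, adjusted p = 0.531), and Col11a1, below the filter, stood at 2.78 to 3.60 over the 12 arrays.

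Of the 24 other collagens tested, 22 lay above 0 and 0 passed. One of 24, Col28a1, had an unadjusted p under 0.05, with a difference of 0.59 ± 0.20 (SE, adjusted p = 0.112). Its probe set was the dimmest of those tested, with log2 levels of 3.18 to 3.61 on the tumor arrays and 3.46 to 4.76 on the stroma arrays. Below 0 lay Col6a4, a chain of type VI collagen, with -0.32 ± 0.18 (SE, adjusted p = 0.305), and Col22a1, named after its value was seen, with -0.018.

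The type VI chains, which form beaded filaments around cells, differed little between tissues against their scatter. Averaged differences were 0.26 ± 0.44 (SE) for Col6a1, 0.16 ± 0.22 (SE) for Col6a2 and 0.26 ± 0.20 (SE) for Col6a3, with adjusted p of 0.727, 0.667 and 0.447. Col6a1 stood at 7.88, 7.98 and 8.62 on wild type tumor, 7.43, 8.57 and 9.04 on wild type stroma, 6.06, 7.94 and 7.98 on deletion tumor and 6.10, 8.52 and 8.37 on deletion stroma. Both deletion arrays numbered 1 thus lay below the other 10 arrays. The second probe set of Col6a1 was also lowest there, at 6.96 and 6.74, against 7.56 to 8.60 on the other arrays. Col6a2, the neighbour of Col6a1, had its lowest values on these arrays too, 5.89 in tumor and 5.46 in stroma, as did Col6a3, with 5.74 and 5.87. The averaged difference of Col6a1 turned to -0.055 without deletion tumor 1 and was 0.65 without deletion stroma 1.

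Col12a1, a fibril-associated collagen of dense tissue, had log2 levels of 5.998, 6.42 and 7.48 on wild type tumor, 7.12, 6.79 and 8.85 on wild type stroma, 6.51, 6.16 and 6.13 on deletion tumor and 6.74, 7.39 and 6.16 on deletion stroma. Wild type stroma 3 stood above every other array. The averaged difference of 0.73 ± 0.34 (SE, adjusted p = 0.226) was 0.41 without that array. Col14a1, another fibril-associated collagen, had a difference of 0.27 ± 0.21 (SE, adjusted p = 0.438).

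The epithelial collagens were measured at low signal. Col7a1, the anchoring fibril collagen made largely by epithelium in skin, stood at 4.61 ± 0.19 (SD, n = 3) in wild type tumor, 5.06 ± 0.34 in wild type stroma, 4.88 ± 0.57 in deletion tumor and 4.995 ± 0.18 in deletion stroma. Col17a1, a hemidesmosome protein, stood at 4.63 ± 0.05, 4.89 ± 0.29, 4.69 ± 0.16 and 4.77 ± 0.12 (SD, n = 3) in the same order. Their averaged differences were 0.28 ± 0.19 (SE) and 0.17 ± 0.14 (SE), with adjusted p of 0.388 and 0.467. Neither lay on the tumor side, where the epithelial markers were.

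**Figure D3:**
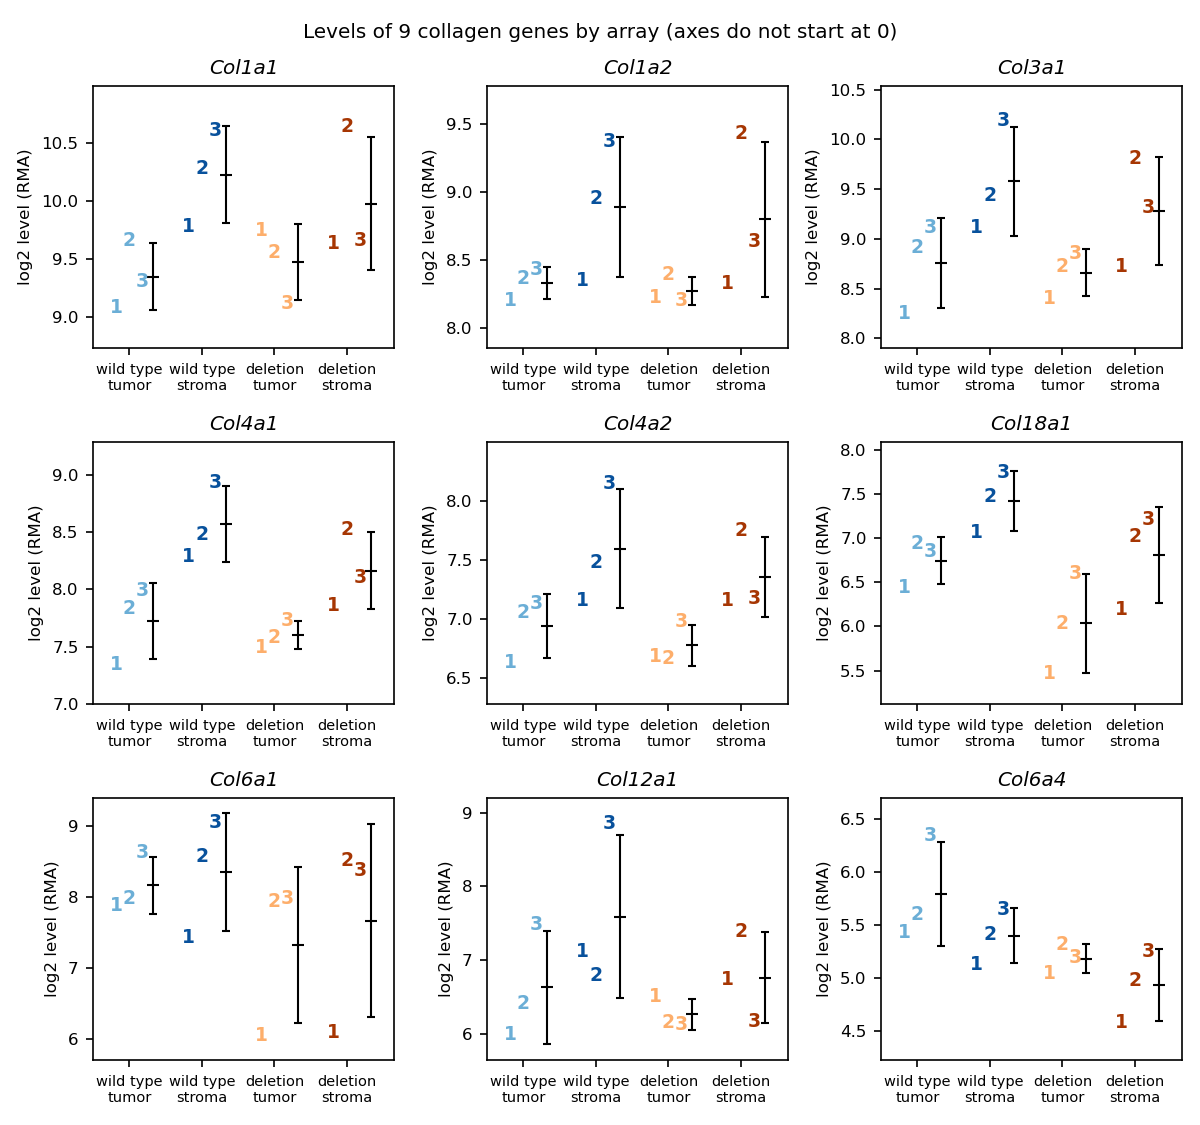
Log2 level of 9 collagens on each array, by group. Digits are the sample numbers of the labels, and the black marks give the group mean ± SD (n = 3); the axes do not start at 0. Stroma arrays of Col4a2 all lie above the tumor arrays (7.15 and up against 7.13 and down), and both deletion arrays numbered 1 are lowest for Col6a1.

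Signal strength moved with the direction of all genes in this comparison. Of the tested genes above the median signal, 31.1% lay above 0, and of those below it 62.9% did. Among collagens, 21 of 22 bright members lay above 0, with a median of 0.39, and 17 of 20 dim members, with a median of 0.16. With the spread of each array as a covariate the medians were 0.59 for bright and 0.0011 for dim collagens, and that of all 42 was 0.073. In that fit 28 of 42 collagens lay above 0. These were 18 of 22 bright and 10 of 20 dim members, against 46.2% of all bright and 45% of all dim genes. The share of higher among called genes was 33.2% as deposited, 55.9% after quantile normalization, 19.0% after median centring and 86.4% with the covariate. Under the last 3 settings 7, 0 and 4 collagens passed as higher, against 1.48%, 0.192% and 1.37% of all genes. After quantile normalization these were Col1a1, Col1a2, Col3a1, Col5a1, Col4a1, Col4a2 and Col18a1, and with the covariate Col3a1, Col4a1, Col4a2 and Col18a1, all higher in stroma.

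Within wild type, 3 stroma arrays against 3 tumor arrays, 39 of 42 collagens lay above 0 against 46.7% of all genes, with a median of 0.32. None of the 42 passed the limma test, and 0% of all tested genes did. At an unadjusted p under 0.05, 9 of 42 were higher, against 5.12% of all genes. The smallest p belonged to Col4a1, 0.85 ± 0.24 (SE), Col5a3, 0.74 ± 0.24 (SE), and Col1a1, 0.88 ± 0.30 (SE), with adjusted p of 0.205, 0.227 and 0.242. All stroma arrays lay above all tumor arrays for 11 of 42 collagens, against 8.88% of all genes. These 11 were 4 fibrillar, 3 basement membrane and 4 other collagens. Col28a1, which passed the filter only through its stroma arrays, is among the 9 and the 11. Col5a3, a type V chain, stood at 5.64, 5.57 and 5.02 in wild type tumor and between 5.98 and 6.48 in wild type stroma.

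Wild type stroma 3 held the highest of the 12 values for 16 of 42 collagens, where 5.83% of all tested genes had their highest value on that array. Without it the averaged comparison called 0 of 42 collagens and 0 genes in all. The median of the wild type comparison stayed between 0.30 and 0.42 when each array was left out in turn.

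Within the deletion, 31 of 42 collagens lay above 0 against 45.5% of all genes, with a median of 0.17. None passed the limma test, and 0% of all tested genes did. The 3 smallest p were those of the basement membrane collagens Col18a1, 0.77 ± 0.31 (SE), Col4a1, 0.56 ± 0.24 (SE), and Col4a2, 0.58 ± 0.26 (SE), with adjusted p of 0.451, 0.479 and 0.506. They were the only 3 collagens with an unadjusted p under 0.05 (4.08% of all genes were higher and 5.6% lower at that level). With the sample number as a block within genotype, 152 genes passed in all, or 0.914%, and again 0 collagens. All stroma arrays lay above all tumor arrays for 6 of 42 collagens, against 6.57% of all genes. Among the 6 were Col5a1, Col5a2, Col4a1 and Col4a2. Col28a1, which passed the filter only through its stroma arrays, is another of the 6. The median rested on single arrays: leaving out deletion tumor 3 gave 0.035, deletion stroma 2 0.087, deletion tumor 1 0.26 and both deletion arrays numbered 1 gave 0.31.

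The genotype comparison in stroma bears on the stated purpose of the study. No collagen passed, 0% of all tested genes did, and no collagen reached an unadjusted p under 0.05, where 5.07% of all genes did. Collagens lay mostly below 0: 32 of 42 had a lower mean in deletion stroma, while 47.2% of all genes lay above 0, and the median was -0.13. That median was -0.24 without deletion stroma 2, -0.21 without wild type stroma 2 and -0.078 without deletion stroma 1. The main fibrillar chains had differences of -0.25 ± 0.30 (SE) for Col1a1, -0.09 ± 0.29 (SE) for Col1a2 and -0.30 ± 0.32 (SE) for Col3a1. Their 95% confidence intervals were -0.89 to 0.39, -0.71 to 0.52 and -0.99 to 0.39, so that differences of either sign were compatible with these 3 arrays a group.

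The 3 smallest p in stroma belonged to Col18a1, -0.62 ± 0.32 (SE), Col6a4, -0.46 ± 0.26 (SE), and Col12a1, -0.82 ± 0.48 (SE), each with an adjusted p of 0.999. The difference of Col12a1 was -0.19 without wild type stroma 3. Col4a1 had -0.41 ± 0.24 (SE), Col5a1 -0.39 ± 0.25 (SE), Col15a1 -0.33 ± 0.31 (SE), Col6a2 -0.50 ± 0.31 (SE) and Col6a3 -0.44 ± 0.28 (SE). The second, dimmer probe set of Col5a1 gave -0.03. For Col22a1 alone, named after its values were seen, the groups did not overlap, with 4.82 to 4.90 in wild type stroma and 4.57 to 4.78 in deletion stroma, against 5.62% of all genes lower and 5.13% higher without overlap.

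In tumor, 0 of 42 collagens passed the limma test, against 0.018% of all tested genes. The median was 0.05 as deposited and -0.0025 after median centring, so its direction was not settled, and 25 of 42 lay above 0 against 48.7% of all genes. Only 3 collagens had an unadjusted p under 0.05 (6.26% of all genes did). Col6a4 stood at 5.43, 5.60 and 6.34 on wild type tumor and 5.04, 5.31 and 5.19 on deletion tumor, a difference of -0.61 ± 0.26 (SE, adjusted p = 0.751) without overlap, and of -0.33 without wild type tumor 3. Col4a6, a type IV chain of specialised membranes, stood at 3.87, 3.98 and 3.61 on wild type tumor and 4.52, 4.15 and 4.09 on deletion tumor. Its difference was 0.44 ± 0.19 (SE, adjusted p = 0.773), also without overlap. Its mean level of 4.10 lay below the median signal of the tested genes. Of all tested genes below that signal, 60.9% lay above 0 in this comparison. Col18a1 had a difference of -0.71 ± 0.31 (SE, adjusted p = 0.776), with overlap. The share of groups without overlap was 4.05% of all genes higher and 5.46% lower.

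**Figure D4:**
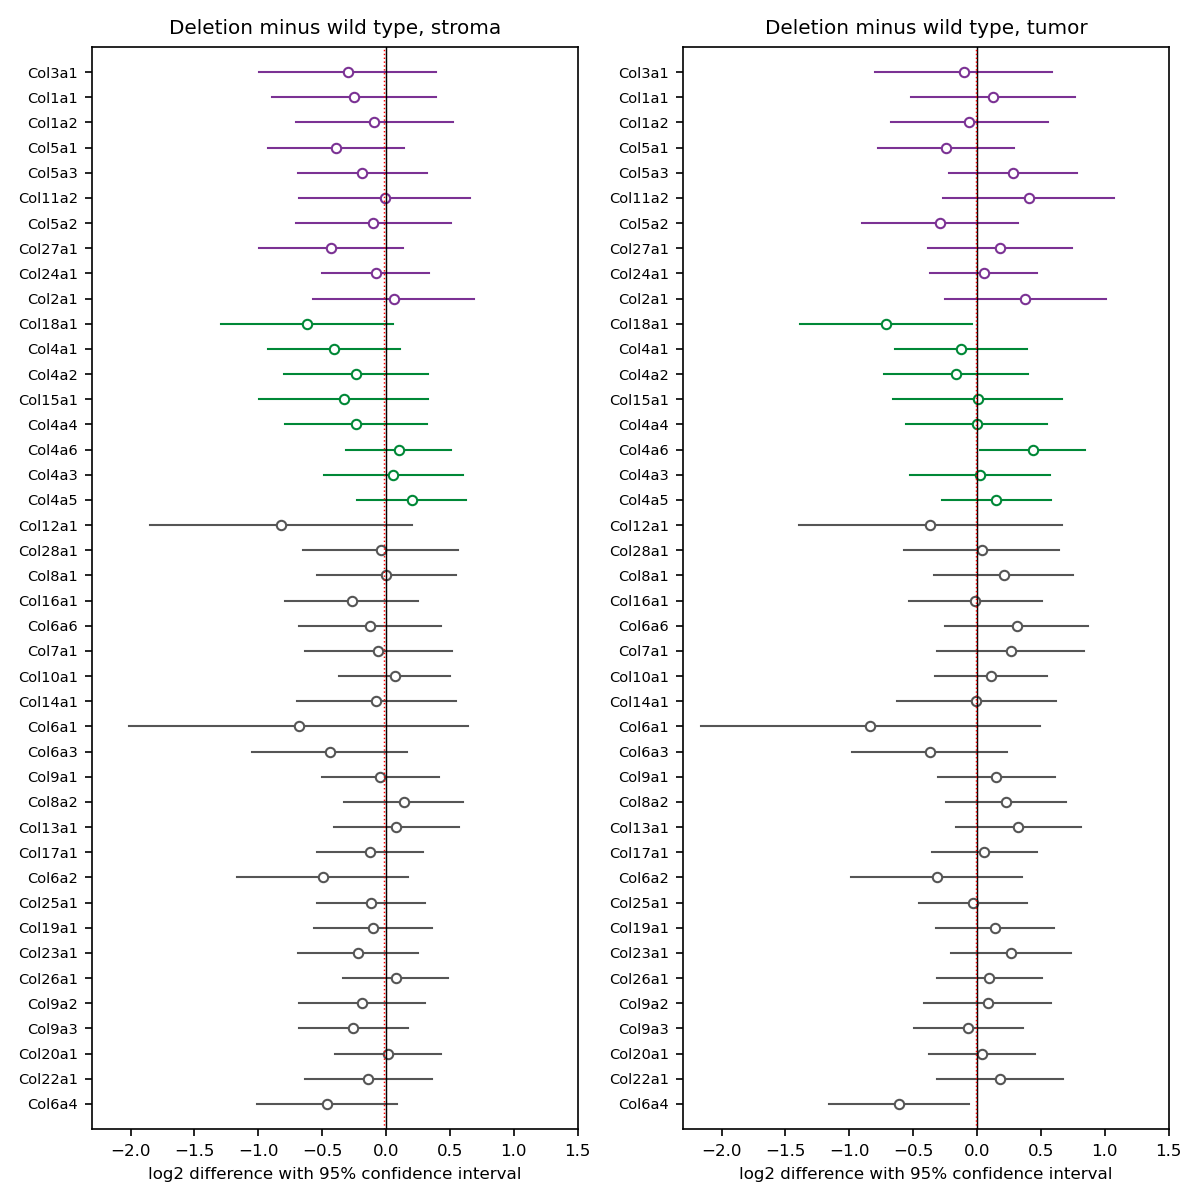
Log2 difference, deletion minus wild type, of the 42 tested collagens in stroma (left) and tumor (right), with 95% confidence intervals, coloured as fibrillar (purple), basement membrane (green) and other (grey). Open points did not pass the limma test, the solid line marks 0 and the dotted line the median of all tested genes. All points are open; 17 of 42 collagens, Col6a1, Col18a1 and Col6a4 among them, lie left of 0 in both tissues.

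In both tissues 17 of 42 collagens had a lower mean in the deletion, against 29.1% of all tested genes. Col6a1 was among them, with differences of -0.68 in stroma and -0.84 in tumor. Its second probe set gave -0.46 and -0.38. Both differences include the low deletion arrays numbered 1. The other deletion stroma arrays, at 8.52 and 8.37, lay above the wild type stroma mean of 8.35. The other deletion tumor arrays, at 7.94 and 7.98, lay below the wild type tumor mean of 8.16. Also among the 17 were Col18a1, Col6a4, Col6a2, Col6a3, Col12a1, Col3a1, Col5a1, Col4a1 and Col4a2. The second probe set of Col5a1 gave -0.03 in stroma and 0.16 in tumor, so it was not lower in both. Col6a4 stood at 5.13, 5.41 and 5.64 on wild type stroma and 4.58, 4.97 and 5.25 on deletion stroma, so the stroma groups overlapped. The stroma and tumor comparisons use different arrays, although samples of the same number may come from 1 mouse.

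The interaction asked whether the genotype difference differed between stroma and tumor. No collagen passed, 0% of all tested genes did, and 0 of 42 had an unadjusted p under 0.05, against 2.41% of all genes. Of the 42 collagens, 36 lay below 0, where 52.5% of all genes lay above 0, and the median was -0.19. That median was -0.037 without both deletion arrays numbered 1, -0.079 without wild type stroma 3, -0.29 without wild type stroma 1 and -0.30 without deletion stroma 2. The smallest p belonged to Col27a1, -0.61 ± 0.37 (SE), Col23a1, -0.48 ± 0.31 (SE), and Col5a3, -0.47 ± 0.33 (SE), each with an adjusted p of 0.995. Col27a1, a fibrillar collagen of cartilage, stood at 5.70, 6.16 and 5.25 on wild type tumor, 6.37, 5.99 and 6.25 on wild type stroma, 6.07, 5.89 and 5.69 on deletion tumor and 5.26, 6.05 and 6.01 on deletion stroma. Only wild type had a higher mean in stroma for this gene, and the test of that difference did not pass.

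Genes that build, process and bind collagen were followed beside the members, in the averaged comparison of stroma with tumor. Of 16 tested genes for intracellular collagen synthesis, 12 lay above 0 and 0 passed. The smallest p were those of Serpinh1, the collagen chaperone HSP47, at 0.49 ± 0.16 (SE, adjusted p = 0.108), and Plod2, a lysyl hydroxylase, at 0.52 ± 0.18 (SE, adjusted p = 0.118). All 10 tested genes for extracellular processing and cross-linking lay above 0 and 0 passed, among them the lysyl oxidases Loxl1 at 0.90 ± 0.24 (SE, adjusted p = 0.0613) and Lox at 0.71 ± 0.26 (SE, adjusted p = 0.138).

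Of the small proteoglycans that coat collagen fibrils, 7 of 7 lay above 0 and 2 passed as higher in stroma. Dcn, which encodes decorin, was 2.44-fold higher (log2 difference 1.29 ± 0.29 SE, adjusted p = 0.0389), and Bgn, which encodes biglycan, 1.98-fold (0.99 ± 0.24 SE, adjusted p = 0.0484). Among 9 collagen receptors 1 rose and 1 fell in stroma. Ddr2, the discoidin receptor typical of mesenchymal cells, was 1.94-fold higher (0.96 ± 0.21 SE, adjusted p = 0.0362). Ddr1, the discoidin receptor typical of epithelium, was 1.69-fold lower (-0.76 ± 0.14 SE, adjusted p = 0.0283).

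Markers of cell types moved with the tissues too. Of 9 tested fibroblast markers, 8 lay above 0 and 2 passed, Thy1 at 0.80 ± 0.17 (SE, adjusted p = 0.0361) and Fbln2 at 0.98 ± 0.22 (SE, adjusted p = 0.0379). Of 7 endothelial markers 3 passed as higher in stroma, Plvap, Vwf and Eng, with differences of 0.89, 0.69 and 0.71. Of 9 leukocyte markers 6 passed as higher, and the median of that list was 1.09. All 8 smooth muscle markers lay above 0 and 0 passed, with a median of 0.43, and 3 of 3 tested markers of enteric glia and nerve lay above 0, with a median of 0.08 and 0 passed. Of 10 epithelial markers 5 passed as lower, Krt18, Elf3, Cdh17, Epcam and Cdh1, with a list median of -1.03.

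The summed linear signal of the 9 fibroblast markers ranged over 521 to 667 in wild type tumor, 669 to 1360 in wild type stroma, 572 to 583 in deletion tumor and 669 to 1200 in deletion stroma. For the 7 endothelial markers the ranges were 481 to 498, 733 to 1230, 445 to 510 and 522 to 890 in the same order. For the 10 epithelial markers they were 4510 to 7110, 2610 to 3110, 4100 to 7140 and 1650 to 4620. No marker stood at 0, since RMA gives every probe set a signal, and epithelial signal remained in every stroma array, reaching the tumor range on 1 deletion stroma array (4620). Fibroblast and endothelial signal was higher in the stroma groups, where collagens were higher, and its part in the collagen differences was not tested.

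**Figure D5:**
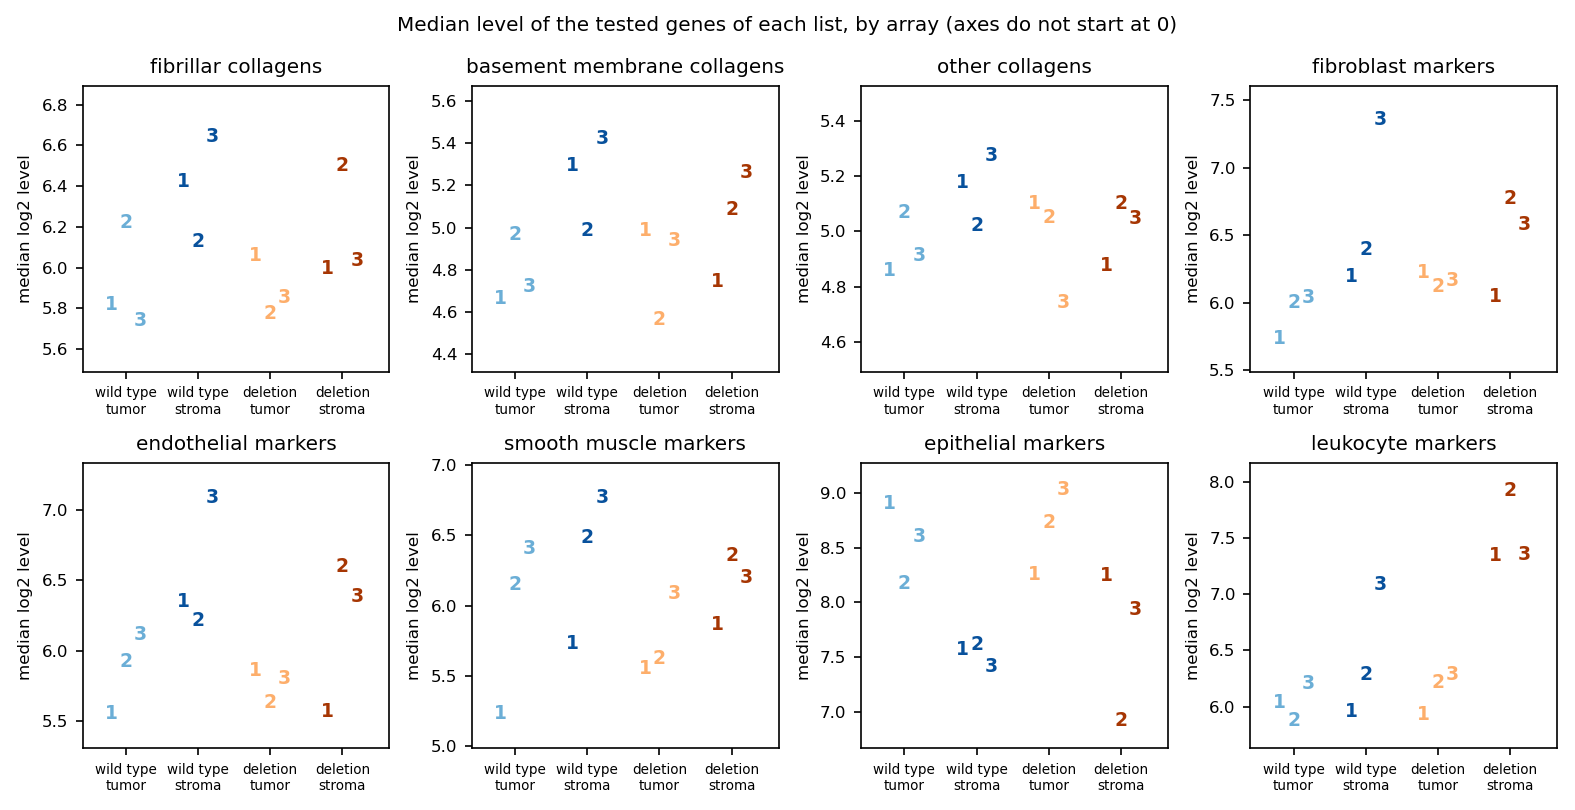
Median log2 level of the tested genes of each list on each array, by group, for the 3 collagen groups and 5 cell type marker lists. Digits are the sample numbers, and the axes do not start at 0. Fibroblast and endothelial medians are highest on wild type stroma 3, at 7.36 and 7.09, as are those of the 3 collagen groups, at 6.64 (fibrillar), 5.42 (basement membrane) and 5.27 (other).

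Wild type stroma 3, the array with the highest median of all 3 collagen groups, also had the highest fibroblast median, 7.36, where the other stroma arrays lay between 6.05 and 6.77. Deletion stroma 1, whose collagen medians were lowest among stroma arrays, had the lowest fibroblast and endothelial medians of the stroma arrays, 6.05 and 5.57, and the highest epithelial median, 8.25. The part of these markers in the collagen values of both arrays was not tested.

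Between genotypes in stroma, 0 genes of any of these lists passed the limma test. The 9 leukocyte markers all lay above 0 in deletion stroma, with a median of 0.91, and their summed signal was 1410 to 1960 against 600 to 1260 in wild type stroma. Fibroblast markers had a median of -0.06 and endothelial markers of -0.28. The fibroblast list was split, with 4 of 9 markers above 0 and 5 below. Its smallest p were those of Pdgfra, a receptor of fibroblasts, with a difference of -0.94 ± 0.37 (SE, adjusted p = 0.869), and of Thy1, a surface protein of fibroblasts, with 0.55 ± 0.25 (SE, adjusted p = 0.965). The collagen-processing genes had a median of -0.16 and the small proteoglycans of -0.0046. The part of these shifts in the collagen values was not tested.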

How the data were processed

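RNA from laser-captured tumor and stroma was measured on 12 single-colour Affymetrix arrays, 1 array per sample, 3 samples in each of 4 groups. Per the submitters' processing notes, the authors summarised 41345 probe sets as log2 signals by robust multi-array average (RMA) with version 1.3.1 of Affymetrix Expression Console. The method removes background, equalises probe intensities between arrays and summarises the probes of a set. It tends to compress differences of dim probe sets. No label or header names a genome build, and scanner files were not used here.

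The deposited log2 values were used unchanged. The platform annotation gave 1 symbol to 23521 probe sets, several to 1814, and did not list 16010. By gene identifier 23328 matched the RefSeq gene table of GRCm38.p6, which changed 0 symbols. Each of 22180 genes was represented by its single-symbol probe set with the highest mean, and the 25% with the lowest mean were left out, below a log2 level of 3.65. This left 16635 genes. One model with a mean per group was fitted in limma 3.58.1 (R 4.3.3) over all 12 arrays. The 6 contrasts were tested with eBayes, two-sided, and p-values were adjusted by Benjamini-Hochberg over all 16635 genes at a threshold of 0.05. Adjusted p-values come from this limma fit wherever no other setting is named. The limma steps were tested on simulated data. Promoter windows and motif counts were made with Python 3.11.15.

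The collagen family and the gene lists were chosen with earlier results of these data known, while membership in the family followed from the symbol alone. Differences, levels or both were given for 16 collagens picked for their known roles. The same holds for the 3 collagens with the smallest p in each contrast, every collagen that passed, and the 3 brightest and 3 dimmest members. From each accompanying list only the 2 genes with the smallest p in a contrast, and genes that passed, were named. Genes named beyond this were chosen after their values were seen, and the text says so.

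The labels number the samples of each group from 1 to 3. Over all tested genes, deviations from the group mean of same-numbered tumor and stroma arrays correlated at 0.123, 0.157 and 0.298 in the deletion and at 0.439, -0.00414 and 0.512 in wild type. Over all genes only the deletion met the criterion that every pair exceed 0.1, which is a hint from the data and not from the design. Over the 42 collagens alone the same pairs correlated at 0.798, 0.224 and 0.38 in the deletion and 0.655, 0.14 and 0.746 in wild type. Wild type tumor 2 and deletion tumor 2 correlated better there with another number, at 0.434 and 0.276. The reported fit holds no block for any comparison, the deletion included. Blocks were used as alternatives only. The labels do not say whether a number marks 1 mouse. Nothing in the labels gives a batch. The alternatives were no filter, quantile normalization, median centring, the mean over probe sets, array weights, the spread of each array as a covariate, the replicate number as a block, and leaving out each array in turn.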

Additional observations from a re-analysis of the deposited data

How the results depend on the processing

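Between stroma and tumor averaged over both genotypes, 1 collagen and 425 genes passed as deposited. Apart from the fit without the filter, counts are of 42 collagens and of 16635 genes, called in either direction. They were 7 collagens with quantile normalization (1.48% of all genes were called higher), 0 with median centring (168 genes in all) and 0 without the filter. Array weights called 13 of 42 collagens and 3834 of 16635 genes, and array spread as a covariate 4 collagens and 264 genes. With the replicate number as a block the counts were 9 collagens and 2187 genes (number fixed). They were 8 and 1648 with genotype and number random, and 10 and 1876 with genotype and number fixed. Leaving out 1 array in turn gave 0 to 2 collagens and 0 to 1296 genes, with 0 genes without wild type stroma 3 and 1296 without deletion tumor 1. Without both deletion arrays numbered 1, 3 of 42 collagens and 1143 of 16635 genes passed, which are similar shares. This alternative was chosen after the Col6a1 level of these arrays was seen. The collagen median, 0.26, was 0.073 with the spread covariate. Col6a1 turned from 0.26 to -0.055 without deletion tumor 1 and was 0.65 without deletion stroma 1. The cause of these shifts was not tested.

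In wild type, array weights called 11 of 42 collagens and 3963 of 16635 genes, which are similar shares. The blocks called 1 collagen (Col4a1) and 304 genes (number fixed), 0 and 5 (random), and 0 and 138 (genotype and number fixed), and leaving out 1 array gave 0 to 8 genes. Wild type arrays 1 and 3 correlated best with their own number (0.439 and 0.512), and wild type tumor 2 with wild type stroma 1 (0.33, against -0.00414 for its own number). Deletion tumor 1 correlated about as well with deletion stroma 2 (0.125) as with its own number (0.123). In the deletion, array weights called 1 of 42 collagens (Col18a1). Over all genes 33 passed with quantile normalization, 727 with array weights, 114 with the covariate, 86, 62 and 152 with the blocks (number fixed, random, genotype and number fixed), 0 to 22 with 1 array left out and 3 without both deletion arrays numbered 1. The collagen median there, 0.17, was 0.023 with the covariate and 0.31 without both deletion arrays numbered 1.

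No collagen passed between genotypes or in the interaction under any alternative, the replicate blocks included. Over all genes the comparison in stroma called 1 with quantile normalization, 164 with array weights, 13 with the covariate, 28 with the number block, 0 to 2 with 1 array left out and 1 without both deletion arrays numbered 1. In tumor these were 1579 with array weights, 14 with the covariate, 89 with the number block and 0 to 7 with 1 array left out. The interaction called 4 genes with array weights, and its collagen median, -0.19, was -0.037 without both deletion arrays numbered 1. The block changed no other call. In the fit with array weights limma reported incomplete convergence, so those counts are given as they came. Dim probe sets, 20 of the 42 tested collagens, lie below the median signal of the tested genes, and 3 arrays a group limit what can be seen.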
